A study of Mus musculus with 7 samples.

Results

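The exonic crosslink hotspots in the mouse genes Lars2 and Acvr2b, and in the transcripts Gm15564 and AA474408 that share sequence with the last exon of Lars2, were described in crosslinking libraries of the translation factor DENR. Members were all crosslink sites in same-strand exons of these 4 genes, which were chosen by their values in these libraries: Lars2 and Acvr2b held more positions listed in every DENR library than the exons of any other protein-coding gene, and Gm15564 and AA474408 were added for their sequence. They amounted to 298 positions of the 23263 listed in any DENR library. Counts of positions shared by the 5 DENR lists therefore describe the choice and were not tested.

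The libraries were made from NIH3T3 cells, an established line of mouse embryonic fibroblasts, by iCLIP. In this method living cells are irradiated so that proteins become covalently bound to RNA in contact with them, the protein is pulled down with its RNA, and the end of the truncated cDNA locates the crosslink to 1 nucleotide. The DENR overexpressing group (n = 3) came from cells transiently transfected with Denr in a FLAG-Venus vector and the non-transfected group (n = 2) from cells that were not, so that endogenous DENR was pulled down; both used the same anti-DENR antibody. The IgG control group (n = 2) was pulled down with IgG, from cells whose transfection is not given; all cells were irradiated with UV-C, and the labels give no further genotype or treatment. More culture dishes were used per non-transfected library than per overexpressing library, and nothing states whether replicates were separate cultures, so the p-values below measure the spread between these libraries only, which may be technical. The lists held 4012 to 16137 sites in the DENR libraries, with summed scores of 16429 to 155677, whereas the IgG control lists held 19 and 234 sites with summed scores of 21 and 434. The score is the height of a site in whole numbers, not scaled to library size, and only sites past the peak caller's threshold are listed, so the sequencing depth is unknown.

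DENR acts with its partner MCTS1 on the small ribosomal subunit and helps ribosomes to resume scanning and reinitiate after a short upstream open reading frame. Lars2 encodes the mitochondrial leucyl-tRNA synthetase, a nuclear-encoded enzyme that loads leucine onto its tRNA inside mitochondria. Acvr2b encodes a type II activin receptor, a membrane serine/threonine kinase that binds activins, myostatin and GDF11 and passes the signal to SMAD proteins through a type I receptor. Gm15564 is annotated as an antisense transcript and AA474408 as a gene model without established status, and neither has a role that can be stated here.

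All sites lay on build mm10 and were annotated with GENCODE M21. Lars2 (ENSMUSG00000035202.8) spans chromosome 9 from 123366927 to 123462666 on the plus strand, and all its sites fell in the 3′ UTR, in exon 21 of 21 (123461499 to 123462664), where the last coding base is 123461675. Nucleotides of this UTR are counted below from 1 at position 123461679, the first base after the stop codon. Acvr2b (ENSMUSG00000061393.14) spans chromosome 9 from 119402118 to 119434995 on the plus strand, and its sites fell in coding sequence, in exon 2 of 10 (119427455 to 119427662). They covered nucleotides 95 to 115 of the 1584-nt coding sequence, which is codons 32 to 39. Gm15564 (ENSMUSG00000086324.8) spans chromosome 16 from 35966752 to 35983230 on the minus strand, and its sites fell in a 71-nt exon, 35981725 to 35981795. AA474408 (ENSMUSG00000073867.2) is a single-exon model on the minus strand of chromosome 7, 110057987 to 110061325.

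The sequences below hold the tallest sites of each gene and are shown because Lars2 aligns with AA474408 and Gm15564, in whole or in part, and Acvr2b does not. They are GENCODE M21 transcript sequences, written 5′ to 3′ in DNA letters, and capitals mark nucleotides listed in all 5 DENR libraries. The first pair is the centre of the Lars2 site cluster, chr9:123461927-123461956, and the stretch of AA474408 beside it, chr7:110059805-110059834. The second pair is the 3′ part of the Lars2 cluster, chr9:123462076-123462105, and the stretch of Gm15564 that aligns with it, chr16:35981739-35981768. The last is the Acvr2b stretch, chr9:119427490-119427524.
Lars2 centre: GTTTTAAGCagGaTGtGTCAGAAAAGTTAC
AA474408: caatGTaGcaggagatgtcagaaaagttac
Lars2 3′ part: cACtAATagGGAAcgtgagctggGATTaGA
Gm15564: cACtAATagGgAAcgtgagCtggGtTtaga
Acvr2b: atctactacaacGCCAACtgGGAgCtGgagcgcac

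Lars2 centre and AA474408, placed side by side without gaps, had the same letter at 23 of 30 nucleotides. The first 6 nucleotides lie 5′ of where the alignment of these genes begins, and they hold 5 of the 7 differing letters and 2 of the 3 AA474408 positions in all 5 lists. In Lars2, 26 of the 30 nucleotides were in all 5 lists. Lars2 3′ part and Gm15564 differed by 1 substitution, A52T, with Lars2 first and positions counted from the 5′ end of the Gm15564 exon. It lies at Lars2 nucleotide 422, which was the tallest Lars2 site in each of the 3 DENR overexpressing libraries.

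Lars2 held 187 positions over 260 nt, of which 77 (41.2%) were listed in all 5 DENR libraries. In all positions listed by any DENR library the share was 8.27%, and in exonic positions outside ribosomal RNA (rRNA) loci and the mitochondrial chromosome it was 2.46%, members included. Because this share chose the genes, nothing is read from the difference. Of the other protein-coding genes, Ppip5k2 and Washc1 came next, with 1 such position each, while Acvr2b had 11. Among all gene types, Gm15564 had 15, the annotated microRNA gene Mir6236 had 9 and AA474408 had 3.

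Positions of Lars2 fell into 3 stretches separated by at least 17 nt without a site. The middle stretch ran from nucleotide 226 to 335 and held 59 of the 77 common positions. The 3′ stretch ran from nucleotide 386 to 439 and held the other 18, whereas the 5′ stretch, nucleotides 180 to 208, held none. No other site of either strand was listed within 2000 nt of the Lars2 cluster, and no site lay on the opposite strand of any exon of the 4 genes.

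The number of Lars2 sites was 104, 166 and 123 in DENR overexpressing replicates 1 to 3 and 102 and 152 in non-transfected replicates 1 and 2. Their summed score was 761, 6276 and 2973 in the overexpressing libraries and 455 and 2692 in the non-transfected ones. Their order was that of the summed scores of the lists, with DENR overexpressing replicate 2 the highest and non-transfected replicate 1 the lowest. The tallest Lars2 site ranked 35th, 43rd and 13th in the overexpressing lists and 77th and 38th in the non-transfected ones.

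Nucleotide 422 (position 123462100, an A) had scores of 71, 307 and 451 in the overexpressing libraries and of 20 and 130 in the non-transfected ones. Neither IgG library listed it. Its neighbour, nucleotide 423 (123462101, a T), had scores of 55, 282 and 171 against 18 and 138, and was the tallest Lars2 site of non-transfected replicate 2. Nucleotides 422 to 424 together carried 23.1%, 11.2% and 26.7% of the Lars2 score in the overexpressing libraries and 9.45% and 13.1% in the non-transfected ones, so the groups overlapped.

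In the middle stretch, 3 of the 5 leading Lars2 positions stood. Nucleotide 286 (123461964, an A) had scores of 31, 180 and 95 in the overexpressing libraries and of 23 and 92 in the non-transfected ones. Nucleotide 254 (123461932, an A) had 22, 256 and 126 against 23 and 57, and nucleotide 269 (123461947, a G) had 32, 237 and 92 against 16 and 70. Unlike nucleotides 422 and 423, nucleotides 254 and 269 were also listed in IgG control replicate 2, with scores of 1 and 2. In non-transfected replicate 1, nucleotides 254 and 286 shared the highest score of the gene.

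**Figure D1:**
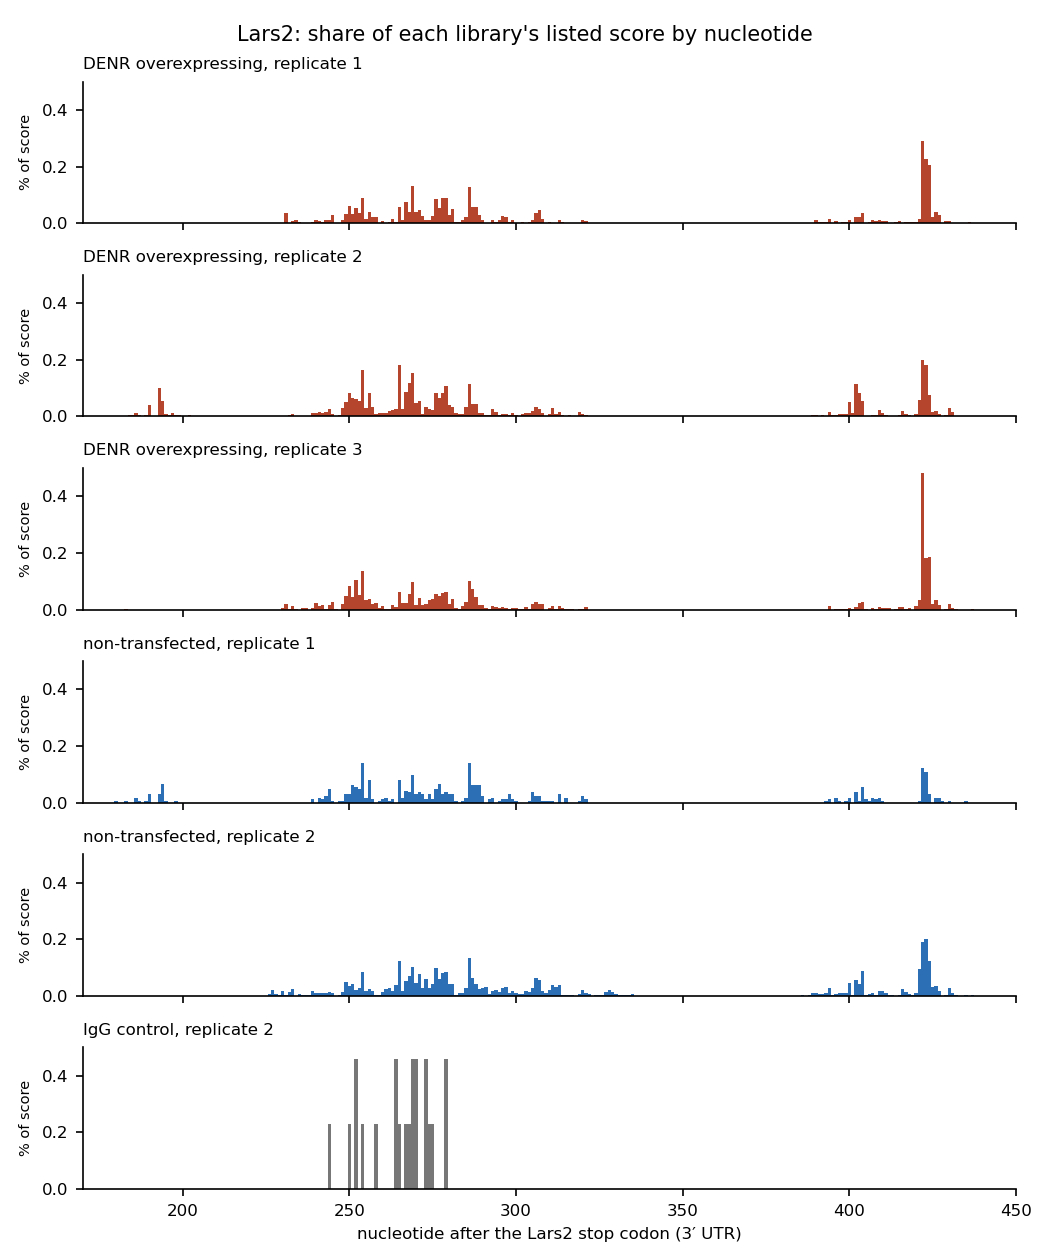
Share of each library's listed score (percent, vertical axis) at each listed nucleotide of the Lars2 3′ UTR (nucleotides after the stop codon, horizontal axis); red panels are DENR overexpressing, blue are non-transfected, grey is IgG control replicate 2, and IgG control replicate 1 listed no site. All 5 DENR libraries show the middle stretch (226 to 335) and the group at nucleotide 422, while the 5′ stretch (180 to 208) stands in DENR overexpressing replicate 2 and non-transfected replicate 1, and a bar of the IgG panel is a score of 1 or 2.

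The middle stretch carried 65.4%, 66.3% and 63.7% of the Lars2 score in the overexpressing libraries and 73.2% and 69.3% in the non-transfected ones. The groups did not overlap, and since the stretches were drawn from these positions the difference was not tested. The separation depends on counting the 5′ stretch in the Lars2 score, and without that stretch the groups overlap. The middle and 3′ stretches had scores of 4161 and 1688 in DENR overexpressing replicate 2 and of 1865 and 827 in non-transfected replicate 2. The 3′ stretch carried 34.6%, 26.9% and 36.2% against 20.2% and 30.7%, with overlap. The 5′ stretch went by library and not by group: it held 24 sites and 6.80% of the Lars2 score in DENR overexpressing replicate 2 and 10 sites and 6.59% in non-transfected replicate 1. DENR overexpressing replicate 3 listed 1 site there, with a score of 2, and the other DENR libraries listed none. Its tallest site, nucleotide 193 (123461871), reached 155 in DENR overexpressing replicate 2. A run of 12 positions at the 3′ end of the middle stretch (123462002 to 123462013, scores up to 14) was listed in non-transfected replicate 2 alone.

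Agreement between libraries was measured as the percentage of one list found at the identical position in another. Over the 10 pairs of DENR libraries, 92.0% (77.5% to 99.0%) of the shorter Lars2 list and 70.4% (59.9% to 80.1%) of the longer one lay at a shared position. In 3 other densely listed loci, the 18S rRNA copy on chromosome 17 and the introns of Cdk8 and Cmss1, the shorter lists averaged 91.0% to 94.1%. Spearman's rho of scores at shared Lars2 positions averaged 0.75 (0.64 to 0.86 over the 10 pairs), across positions that are neighbours and not independent. The positions listed in all 5 libraries carried 82.6% to 93.0% of the Lars2 score of each DENR library.

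Adenine carried more of the Lars2 score than its share of the sequence. Of the 260 nt that span the sites, 23.5% were A, 21.9% C, 26.5% G and 28.1% T. A carried 37.1%, 34.2% and 39.5% of the score in the overexpressing libraries and 36.7% and 32.5% in the non-transfected ones. C carried 11.3% to 16.4% and was below its share of the sequence in each of the 5 libraries. These shares rest on the same tall nucleotides in each library, with nucleotide 422 among them, and were not tested.

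Acvr2b held 21 neighbouring positions, 119427497 to 119427517, and 11 of them (52.4%) were listed in all 5 DENR libraries. The lists held 16, 18 and 17 Acvr2b sites in the overexpressing libraries and 12 and 20 in the non-transfected ones, with summed scores of 61, 322 and 184 against 36 and 234. No other site of either strand was listed within 2000 nt. The hotspot was low beside that of Lars2, its tallest site ranking 290th to 370th in the DENR lists.

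Its summit was nucleotide 103 of the coding sequence (119427505, an A), with scores of 15, 79 and 44 in the overexpressing libraries, 9 and 36 in the non-transfected ones and 2 in IgG control replicate 2. This was the tallest Acvr2b site in each of the 6 libraries that listed the gene. As a share of listed score it varied little, with a mean of 0.0533% ± 0.00531 (SD, n = 5).

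The sites next in rank were nucleotide 102, with scores of 4, 37 and 15 against 4 and 19, and nucleotide 110, with 5, 27 and 12 against 3 and 14. Nucleotide 105 followed with 3, 29 and 12 against 4 and 13, and nucleotide 100 with 9, 9 and 22 against 3 and 12. In unscaled score, DENR overexpressing replicate 2, the list with the largest summed score, was highest at nucleotides 102, 105 and 110. DENR overexpressing replicate 3 was highest at nucleotide 100. None of the 11 common positions was a T, and the 21-nt span holds T at 2 positions. All pairs of libraries shared at least 91.7% of the shorter Acvr2b list. The DENR lists held 12 to 20 positions of this 21-nt span, so much of the sharing follows from how full the span is.

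**Figure D2:**
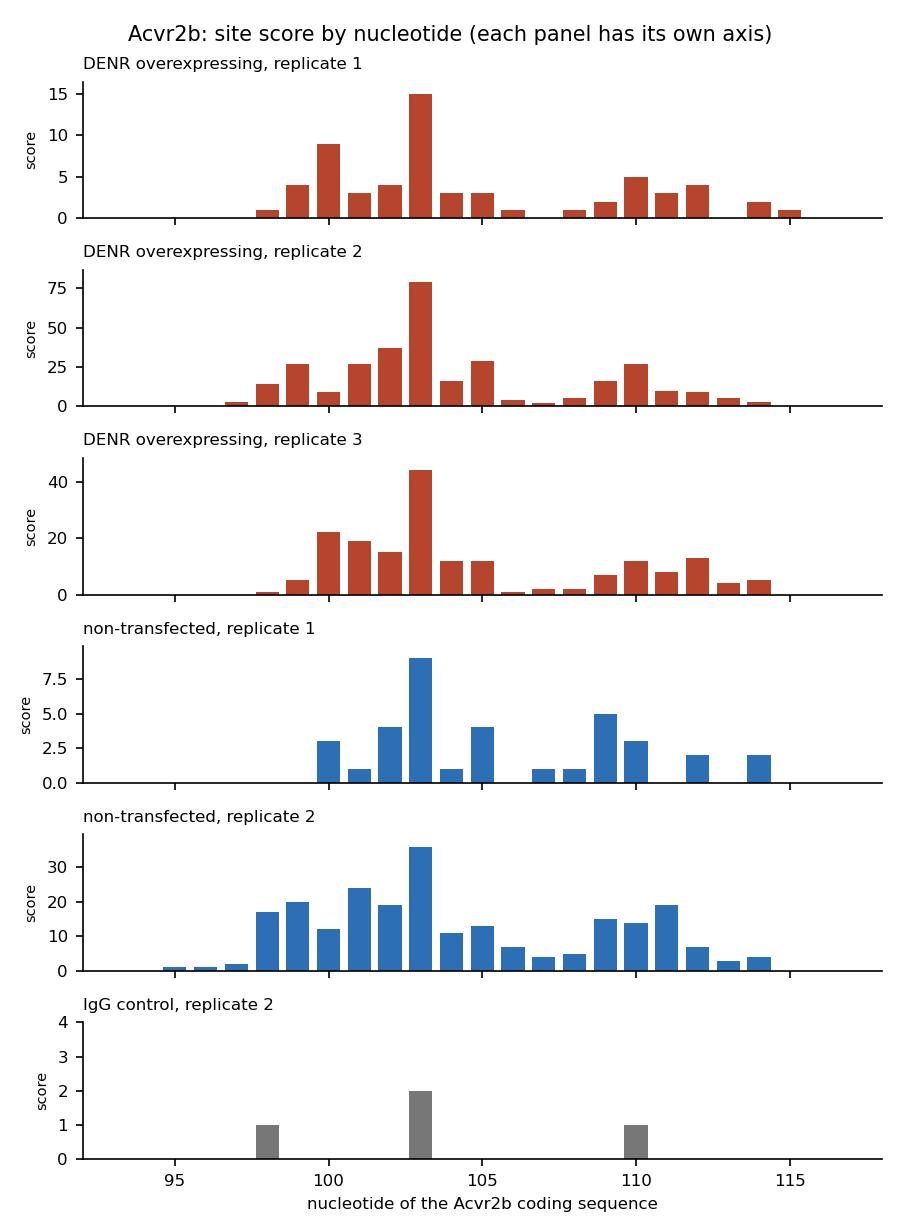
Score of each Acvr2b site (vertical axis, one scale per panel) by nucleotide of the coding sequence (horizontal axis), with colours as for Lars2; IgG control replicate 1 listed no site. Nucleotide 103 is the highest in every panel, including the 3 sites of IgG control replicate 2.

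Gm15564 held 63 positions in its 71-nt exon, 15 of them (23.8%) in all 5 DENR libraries and 27 in the other 4 when non-transfected replicate 1 was left out. The lists held 33, 58 and 47 sites in the overexpressing libraries and 25 and 53 in the non-transfected ones, with summed scores of 100, 1042 and 308 against 55 and 441. The exon edge was not the edge of the cluster: minus-strand sites ran from 35981687 to 35981826, and 43 of the 106 positions lay outside the exon. A separate plus-strand cluster covered 35981576 to 35981629 with 52 positions, 31 of them in all 5 libraries.

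The leading position of Gm15564 was 35981762, exon nucleotide 34, with scores of 15, 101 and 35 in the overexpressing libraries, 10 and 45 in the non-transfected ones and 3 in IgG control replicate 2. Position 35981745 had 6, 92 and 39 against 5 and 61. Position 35981763 had 2, 120 and 22 against 6 and 35, and 35981766 had 11, 81 and 13 against 1 and 26. Position 35981764 reached 147 in DENR overexpressing replicate 2 and was at most 22 in the other libraries. DENR overexpressing replicate 2, the list with the largest summed score, had the highest unscaled score at each of these 5 positions. Spearman's rho of scores at shared positions averaged 0.53 over the 6 pairs with enough of them.

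AA474408 held 27 positions with low scores, 17 of which (63.0%) were in 1 DENR list only. The lists held 5, 20 and 14 sites in the overexpressing libraries and 5 in each non-transfected library, with summed scores of 6, 60 and 42 against 10 and 8. Of the 3 common positions, 110059829 had scores of 1, 15 and 12 against 4 and 4. Position 110059830 had 2, 7 and 3 against 3 and 1, and 110059827 had 1, 5 and 2 against 1 and 1. Scores of 1 to 5 are close to the lowest a list can hold, so the order of the libraries could not be read from them.

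**Figure D3:**
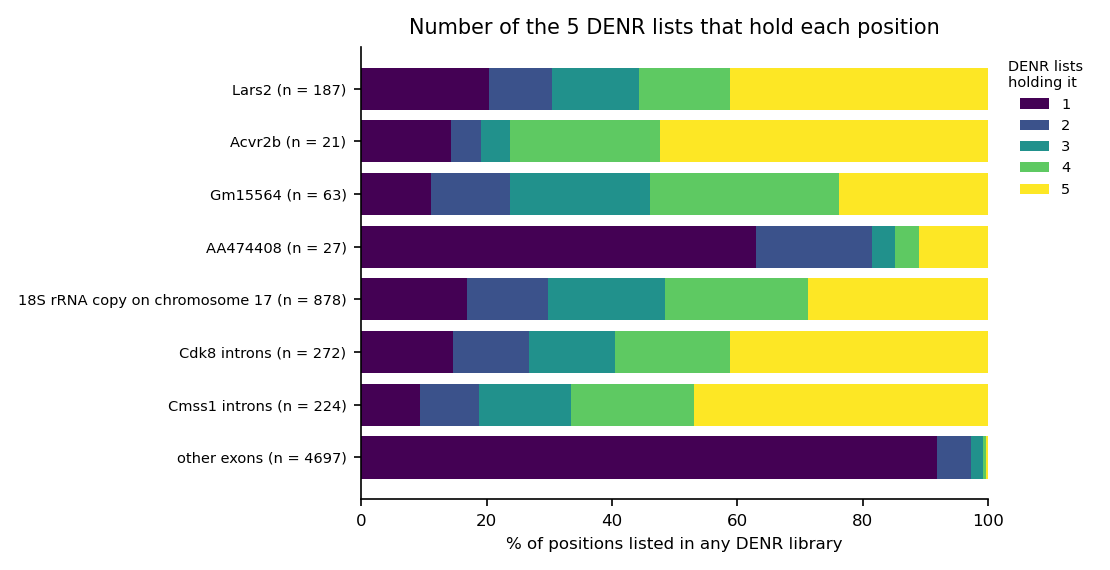
Percentage of positions (horizontal axis) held by 1 to 5 of the DENR lists, for the 4 genes, 3 densely listed loci and all other exonic positions outside rRNA loci and mitochondria, with the number of positions in brackets. All-5 positions make up 41.2% of Lars2, 52.4% of Acvr2b, 23.8% of Gm15564 and 11.1% of AA474408, and 0.362% of the other exonic positions.

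The relation between the 4 genes was measured by aligning the site-bearing exons of Lars2, Acvr2b and Gm15564 with all GENCODE transcripts. The Lars2 UTR aligned with Gm15564 over its whole 71-nt exon (98.6% identity, same strand) and with AA474408 over 196 alignment columns, in which 157 of 162 paired nucleotides were identical. A more permissive scoring was used for mt-Rnr2, the large-subunit rRNA of the mitochondrial ribosome. With it, the Lars2 UTR aligned on the same strand over 192 paired nucleotides, 60.4% of them identical. The other alignments of Lars2 lay outside the nucleotides with sites, and the Acvr2b exon aligned with no transcript of another gene. Nuclear 28S rRNA was not analysed here, and whether the reads at these sites came from rRNA or from these transcripts was not tested.

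Sequence shared with another gene was then looked for just downstream of each site. The 30 nt 3′ of a site matched a transcript of another gene, with at most 2 mismatches, at 61 of 187 Lars2 sites (32.6%) and 16 of 27 AA474408 sites (59.3%). All 40 Gm15564 sites with 30 nt of exon left matched Lars2, and none of the 21 Acvr2b sites matched any other gene. The matching genes were in each case others of Lars2, Gm15564 and AA474408. How the authors treated reads with several places in the genome is not given in the sources used here.

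Of the 71 aligned nucleotides, 53 were listed in Lars2 and 63 in Gm15564 in some DENR library, and 48 in both. The scores were nearly alike at some nucleotides and far apart at others. At Lars2 nucleotide 421, just 5′ of the differing nucleotide, Lars2 had 4, 90 and 31 in the overexpressing libraries and 1 and 64 in the non-transfected ones, and the facing Gm15564 position had 6, 92 and 39 against 5 and 61. At the differing nucleotide itself, where Lars2 had 71, 307 and 451 against 20 and 130, Gm15564 had 0, 23 and 31 against 2 and 3.

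Summed over the 51 nucleotides 5′ of the differing one, Lars2 had 60, 836 and 187 in the overexpressing libraries and 40 and 388 in the non-transfected ones. Gm15564 had 98, 977 and 242 against 48 and 423, which was more than Lars2 in each library. These totals include Lars2 nucleotides 371 to 385, where no library listed a Lars2 site and Gm15564 had scores of up to 25. In non-transfected replicate 2, the larger Gm15564 total rests on those nucleotides. From the differing nucleotide on, 20 nucleotides held 203, 852 and 889 against 52 and 439 in Lars2 and 2, 65 and 66 against 7 and 18 in Gm15564. This division at the differing nucleotide was chosen after the values were seen.

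**Figure D4:**
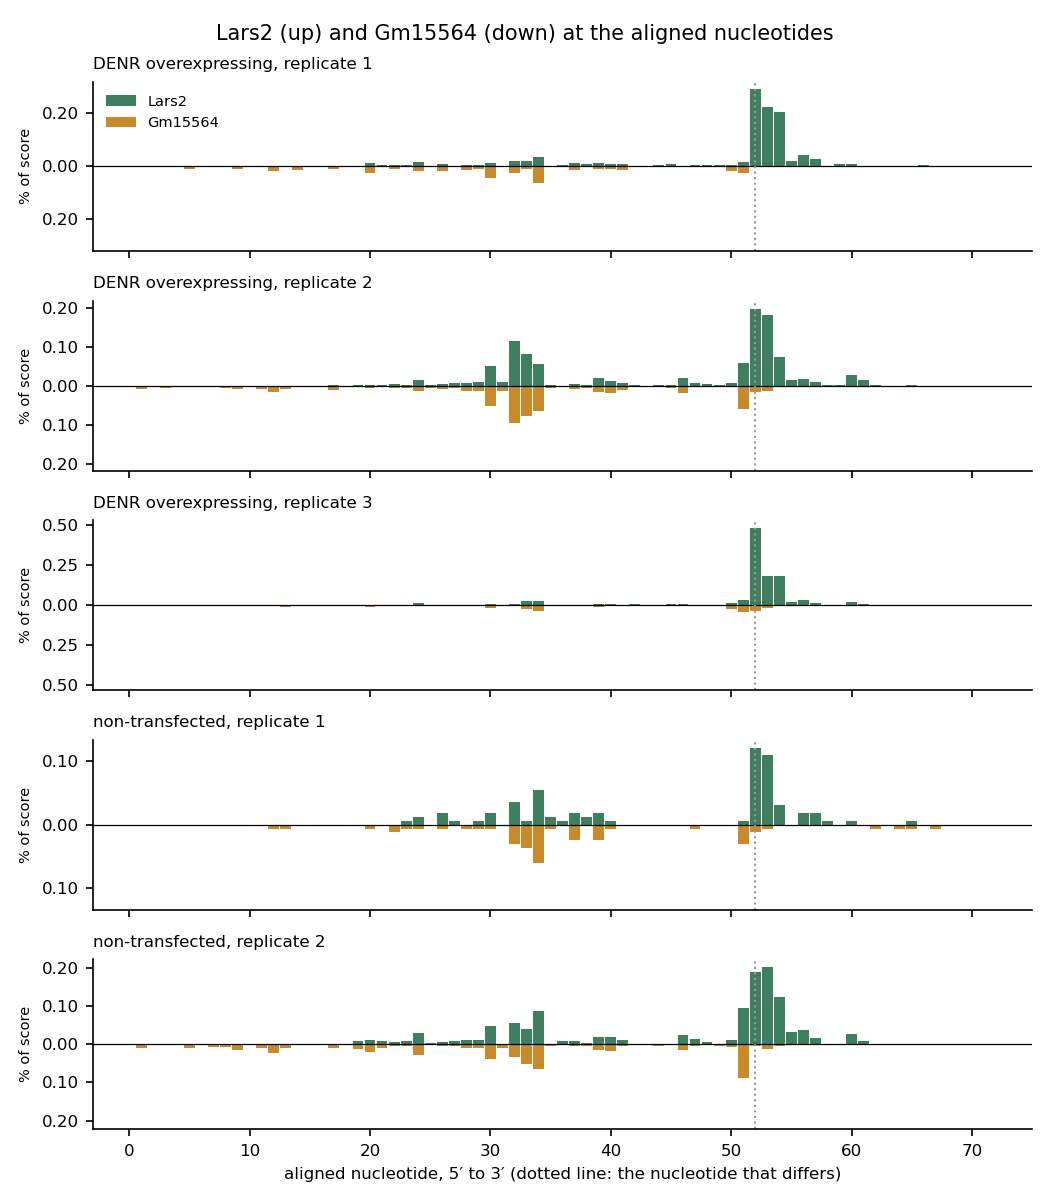
Share of each library's listed score (percent; Lars2 upward in green, Gm15564 downward in orange, one scale per panel) at the 71 aligned nucleotides, 5′ to 3′. Left of the dotted line, which marks the differing nucleotide at place 52, both genes carry score, except that Lars2 lists no site at the 5′ end. From the line on nearly all of the score lies in Lars2.

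AA474408 shared few positions with Lars2. Of 162 aligned nucleotides, 112 were listed in Lars2, 22 in AA474408 and 17 in both. The tallest AA474408 position, 110059829, lies 1 nt 5′ of the aligned part and is not among these nucleotides. With mt-Rnr2, 116 of the aligned nucleotides were listed in Lars2, 27 in mt-Rnr2 and 4 in both.

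Whether DENR overexpression altered the weight of these hotspots was asked by comparing each gene's percentage of the listed score. For Lars2 it was 3.11%, 4.03% and 3.18% in the overexpressing libraries and 2.77% and 3.94% in the non-transfected ones. The means were 3.44% ± 0.514 (SD, n = 3) and 3.35% ± 0.827 (SD, n = 2), a difference of 0.0853 percentage points (exact permutation test, two-sided, p = 0.800). For Acvr2b it was 0.249%, 0.207% and 0.197% against 0.219% and 0.342%, a difference of -0.0632 (exact permutation p = 0.400) that was -0.00152 without non-transfected replicate 2 and -0.125 without non-transfected replicate 1. For Gm15564 the difference was -0.0210 and for AA474408 -0.000305 percentage points (exact permutation p = 1.00 for each). The groups overlapped for all 4 genes, and for Lars2 the difference became -0.211 without DENR overexpressing replicate 2 and -0.500 without non-transfected replicate 1. The sign for Gm15564 turned without DENR overexpressing replicate 1 (0.00918), DENR overexpressing replicate 3 (0.0490) or non-transfected replicate 2 (0.134), and that for AA474408 without DENR overexpressing replicate 1 (0.00542) or non-transfected replicate 1 (0.0243). With 3 against 2 libraries the smallest p is 0.2, and after Benjamini-Hochberg adjustment over 8 tests the exact permutation p was 1.00 for each of these 4.

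At single nucleotides, the share of listed score was compared at the positions in all 5 DENR libraries. In the series, the share was higher in every overexpressing than in every non-transfected library at 4.94% of 1925 such positions, and lower at 9.09%. Lars2 was close to this background, with 4 of 77 positions higher (5.19%) and 9 lower (11.7%). Acvr2b had 0 of 11 higher and 4 lower (36.4%), and Gm15564 had 1 of 15 higher and 2 lower. The 4 Acvr2b positions are within 15 nt of one another and were listed in the same 5 libraries, so they are not independent, and their number was not tested.

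**Figure D5:**
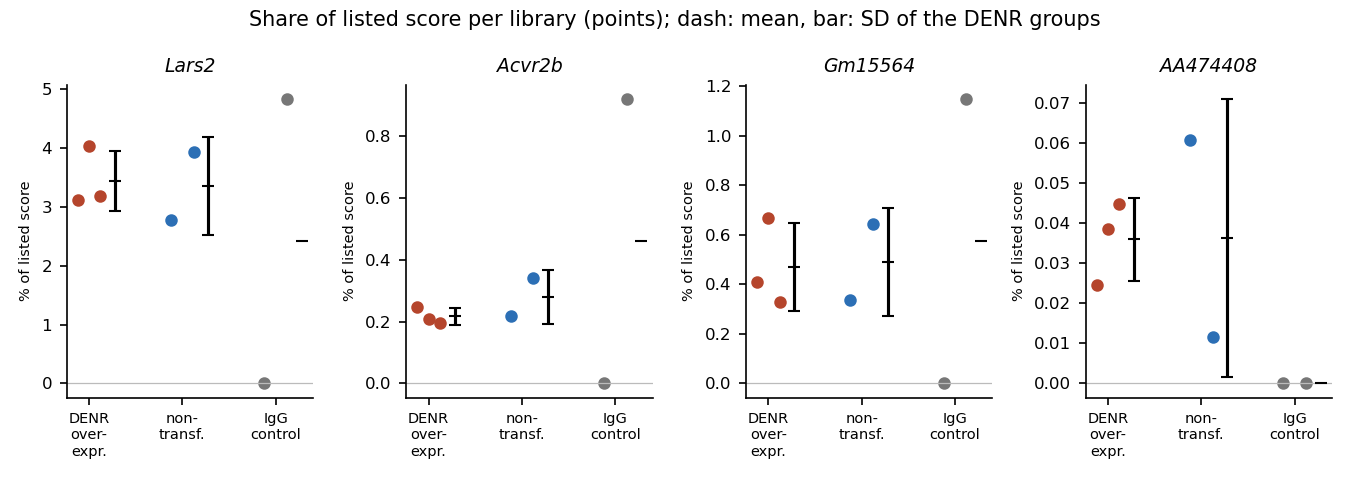
Percentage of listed score (vertical axis, one linear scale per gene) held by each gene in each library (points), with the group mean (dash) and, for the DENR groups, the SD (bar; n = 3 and n = 2). The DENR groups overlap in each gene, and IgG control replicate 2 lies above all DENR libraries for Lars2 (4.84%), Acvr2b (0.922%) and Gm15564 (1.15%) while IgG control replicate 1 is at 0.

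The IgG control, which shows what is recovered without the DENR antibody, was not free of these sites. IgG control replicate 1 listed none of them. IgG control replicate 2 listed 20 in all (8.55% of its 234 sites, 95% Clopper-Pearson interval 5.30% to 12.9%): 15 in Lars2, 3 in Acvr2b, 2 in Gm15564 and none in AA474408. All 20 positions were also listed by a DENR library. In all 5 DENR libraries were 13 of the 15 Lars2 positions, 2 of the 3 in Acvr2b and both in Gm15564. Neighbouring sites depend on one another, and the intervals hold for counting error alone.

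The 15 Lars2 positions lay between 123461922 and 123461957, within 36 nt of the middle stretch, and had scores of 1 or 2. The 3′ stretch, with the tallest sites of the DENR overexpressing libraries, had no IgG site. In Acvr2b the IgG positions were nucleotides 98, 103 and 110, with scores of 1, 2 and 1, and in Gm15564 they were 35981762 and 35981764, with scores of 3 and 2. These Gm15564 positions face Lars2 nucleotides 404 and 402 of the 3′ stretch, where both genes have the same base. The sequence of the 3′ stretch was therefore not free of IgG sites. An IgG list held 16.9% of the common Lars2 positions, 18.2% of those in Acvr2b and 13.3% of those in Gm15564, beside 10.0% of all positions in 5 DENR lists.

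As a percentage of listed score, IgG control replicate 2 gave 4.84% for Lars2 (95% Clopper-Pearson interval 3.02% to 7.30%), which lies above the highest DENR library, 4.03%, although the interval reaches below it. It gave 0.922% for Acvr2b (interval 0.252% to 2.34%) and 1.15% for Gm15564 (0.375% to 2.67%), whose DENR libraries lay at 0.197% to 0.342% and 0.329% to 0.669%. These values rest on scores of 21, 4 and 5 of 434. At the mean share of the DENR libraries, the 21 score units of IgG control replicate 1 would hold 0.715 of Lars2, so its lack of sites was not informative at this size.

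The mean of the 5 DENR libraries minus that of the IgG pair was 0.986 percentage points for Lars2 and -0.218 for Acvr2b. Both genes were chosen on their DENR listings, and these differences are given as a description. For Gm15564 the difference was -0.0986 (exact permutation test, two-sided, p = 0.667). Gm15564 was added for its sequence shared with Lars2. At the mean DENR share the IgG control lists would hold 0.100 and 2.07 score units of Gm15564, so nothing is read from this p. Leaving out IgG control replicate 1 turned Lars2 to -1.43, and leaving out IgG control replicate 2 turned Acvr2b to 0.243 and Gm15564 to 0.477. AA474408 kept its sign, with 0.0117% to 0.0609% in the DENR libraries and no site in either IgG library. Its exact permutation p of 0.0952 was the smallest that 5 against 2 libraries allow and became 0.762 after Benjamini-Hochberg adjustment over 8 tests. Any gene listed in every DENR library and in no IgG library gives this p, so nothing is read from it. With 0 of 234 sites the 95% Clopper-Pearson interval reaches 1.56% of sites, and at the mean DENR share IgG control replicate 2 would hold 0.157 score units of AA474408, so an absence was not detectable at this size.

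Relatives of both protein-coding genes were counted beside all annotated protein-coding genes, of which 7.92% had an exonic site in some library. Of 21 genes for other mitochondrial aminoacyl-tRNA synthetases and the mitochondrial glutaminyl-tRNA amidotransferase, 3 had an exonic site: Hars2, Vars2 and Yars2, with 1 site in 1 library each and scores of 4, 2 and 3. Lars, the cytosolic leucyl-tRNA synthetase, had 0. Of 13 other receptors and coreceptors of the TGF-beta family, Bmpr1a and Bmpr2 had 1 site in 1 library each. Of 13 ligands and inhibitors, Bmp2 had 3 sites, all in DENR overexpressing replicate 3, and none of the 8 SMAD genes had a site. Each position in these genes was listed in 1 DENR library, as were 91.8% of exonic positions outside the 4 hotspot genes, rRNA loci and mitochondria.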

How the data were processed

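Site lists of 7 iCLIP libraries were used, grouped by their titles. The authors removed barcodes, mapped reads to mm10 with Bowtie 0.12.7 (the submitters' processing notes name Bowtie2) allowing 2 mismatches, excluded reads with the same molecular identifier and start, and called sites in each library separately with iCount peaks (100 permutations, 15-nt flank, false discovery rate 0.05). The deposited score of a site is a whole number, not normalised, whose sign gives the strand. Depth is unknown. Whether regions were pooled for calling is uncertain: the file headers say that they were kept apart, the study's methods that they were used as one. A header is missing for DENR overexpressing replicate 2.

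From the lists, positions were assigned to same-strand exons of GENCODE M21, which has the same build. A gene's percentage of listed score was its summed score over that of the list. Differences of group means were assessed with two-sided exact permutation tests (scipy 1.17.1), with Benjamini-Hochberg adjustment over 8 tests. Those of Lars2 and Acvr2b against IgG count among the 8 but are not read, since DENR listings chose both genes. That of AA474408 against IgG is not read either, since the IgG lists were too small to show its absence. The same holds for that of Gm15564, a relative of Lars2 with few score units to be looked for in the IgG lists. Sequences were compared with blastn 2.17.0 (e-value at most 1e-05; a more permissive scoring for mt-Rnr2) and by a search of 20-, 30- and 50-nt windows with at most 2 mismatches in all transcripts, both strands, with no genome sequence used. Scripts were tested on simulated data. Named in each gene were every IgG position and, among positions in the most DENR lists, the 5 of best average score rank. Alternatives were other score minimums, denominators, strands, position tolerances, a cap on scores, a replicate block and each library left out. The members, lists and tests were chosen with earlier results of these data known.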

Additional observations from a re-analysis of the deposited data

How the results depend on the processing

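No test passed a threshold of 0.05 in any setting, and no design here could. Of 106 alternative values of the 8 differences, 27 changed sign. Not all of these are separate: the replicate block described below repeats the values without DENR overexpressing replicate 3. For Lars2, overexpressing minus non-transfected, the percentage of listed sites gave -0.629, leaving rRNA loci and mitochondria out of the total -0.00305 and a cap of 100 per site -0.116; leaving out a library in turn gave -0.500 to 0.670 percentage points. The same difference ranged from -0.125 to -0.00152 for Acvr2b, -0.176 to 0.134 for Gm15564 and -0.0249 to 0.0243 for AA474408. For Gm15564 a minimum score of 10 gave 0.0724 and the cap 0.00372. For AA474408 the percentage of sites gave 0.0360, a minimum of 5 gave 0.0172, of 10 gave 0.00963, the total without rRNA 0.00249 and the cap 0.00533. For DENR minus IgG, the percentage of sites gave -1.35 for Lars2 and 0.164 for Gm15564. Minimums of 5 and 10 gave 0.220 and 0.180 for Acvr2b and 0.435 and 0.372 for Gm15564. No IgG site of the 4 genes scored above 3, so these minimums leave only the DENR mean. Their sign changes, counted among the 27, were fixed in advance and are not read. Leaving out a library gave -1.43 to 3.41 for Lars2, -0.679 to 0.243 for Acvr2b, -0.675 to 0.477 for Gm15564 and 0.0299 to 0.0422 for AA474408, the extremes of the first 3 coming without an IgG library. Without the 5′ Lars2 stretch, an alternative chosen after seeing the data, the Lars2 differences were 0.0845 and 0.894.

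With replicate numbers as a block (pairs 1 and 2), overexpressing minus non-transfected was 0.217 for Lars2, -0.0527 for Acvr2b, 0.0490 for Gm15564 and -0.00475 for AA474408, and DENR minus IgG 1.04, -0.206, -0.0615 and 0.0339. The block leaves out DENR overexpressing replicate 3, and its values equal those without that library, so they say nothing about pairing. Only the sign for Gm15564 changed, in the first contrast, and this is the change already given for leaving out that library. The deviations of same-numbered libraries correlated at 0.201 over 1925 positions, and nothing in the labels ties the numbers to a shared culture.

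Counts of positions in all 5 lists (77, 11, 15 and 3 for Lars2, Acvr2b, Gm15564 and AA474408) became 123, 18, 44 and 5 within 2 nt, 142, 21, 57 and 13 within 5 nt, 29, 1, 3 and 0 at scores of at least 5 and 10, 0, 1 and 0 at scores of at least 10. With a library left out they were 77 to 93, 11 to 15, 15 to 27 and 3 to 4, the most without non-transfected replicate 1. Lars2 agreement was 89.7% to 94.9% with a library left out. The share of sites whose 3′ sequence matched another gene was 61.5% for Lars2, 47.6% for Acvr2b and 85.2% for AA474408 with 20 nt, and 4.28% for Lars2 and 7.41% for AA474408 with 50 nt. With 20 nt the matches fell in 60 other genes for Lars2, 11 for Acvr2b and 18 for AA474408, and no Acvr2b match was exact. Whether matches this short mark related sequence was not tested.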
